A study of Mus musculus with 22 samples.

Results

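The 200 autosomal 1 Mb bins of the mouse genome in which the level of 5-hydroxymethylcytosine (5hmC) was lowest in olfactory bulb relative to cortex are described here, with their genes, their cerebellum levels and the 5-methylcytosine (5mC) in the 100 kb bins inside them. They were chosen by the ratio of the olfactory bulb mean to the cortex mean among the 2270 autosomal bins whose cortex mean was at least 0.10, out of 2470 autosomal bins and 2641 bins in all. The remaining 2070 eligible bins are called the other eligible bins. All tissues came from female C57BL/6 mice of 8 weeks with no treatment, and no tissue was sorted into cell types: cortex stands for all of the cerebral cortex but not the hippocampus, and the other tissues are entire organs. 5hmC was read by TAB-seq in 3 libraries of each tissue, and 5mC by oxBS-seq in 3 cortex, 2 olfactory bulb and 2 cerebellum libraries. Replicates came from independent mice, and are called biological in one place of the study and technical in another. In such whole tissue, fewer cells of a type that carries 5hmC and less 5hmC per cell cannot be told apart.

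5hmC is made from 5mC by the TET enzymes and is abundant in neurons, where it lies mainly in the bodies of genes. Ordinary bisulfite sequencing cannot tell it from 5mC. In TAB-seq a glucose shields 5hmC while a TET enzyme oxidizes 5mC, so that after bisulfite treatment only 5hmC is read as C. In oxBS-seq 5hmC is oxidized chemically beforehand, which leaves 5mC as the only form still read as C. The values are fractions between 0 and 1 per bin with no read counts, so the number of reads behind a bin is unknown and the error given throughout is the SD between libraries. Over the 200 bins, Pearson's r for pairs of libraries of a tissue ran from 0.987 to 0.996 in TAB-seq and from 0.964 to 0.984 in oxBS-seq. The third cortex library of oxBS-seq had the lowest mean 5mC of its tissue, at 0.692 over the 200 bins against 0.719 and 0.716 in the other two.

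Both marks are read at CpG sites, and the sequences below are shown to let a reader see how sparse or dense these sites are in such bins. They hold few of the sites behind a bin's level. Capitals mark CpG. Of 8 genes looked up in the RefSeq promoter table (GRCm38.p6), 6 had an entry and Ptprd and Xylt1 had none. The promoters span 250 bases before to 50 after the start. That of Slc5a7, the gene of the choline transporter of cholinergic neurons, lies in the bin with the lowest ratio of all (chr17:54298985-54299284, minus strand). That of Arap2, the gene of a GTPase-activating protein of Arf proteins, lies in the 100 kb bin with the largest gain of the 5mC level in cerebellum (chr5:62766128-62766427, minus strand). Those of Rims1, the gene of a scaffold of the presynaptic active zone (chr1:22806109-22806408, minus strand), and Caln1, the gene of a calcium-binding protein of neurons (chr5:130369208-130369507, plus strand), lie in the bins with the highest cerebellum 5hmC. The last 3 genes were picked after their values were seen. The last 2 sequences are the central 300 bases of the bin with the second lowest ratio (chr1:102499851-102500150, plus strand, in the pseudogene Gm3116) and of a 100 kb bin inside Ptprd (chr4:76249851-76250150, plus strand, intronic). They were read from the GRCm38.p6 genome. Their place inside the bin was set by position alone, but both bins were taken for their values. That in Ptprd had one of the largest gains of 5mC in olfactory bulb.
Slc5a7: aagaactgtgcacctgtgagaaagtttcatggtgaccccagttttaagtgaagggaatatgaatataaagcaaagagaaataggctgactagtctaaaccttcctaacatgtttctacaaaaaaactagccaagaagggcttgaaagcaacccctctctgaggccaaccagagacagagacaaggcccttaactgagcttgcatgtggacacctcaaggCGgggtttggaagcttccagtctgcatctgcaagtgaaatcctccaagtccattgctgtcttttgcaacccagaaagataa
Arap2: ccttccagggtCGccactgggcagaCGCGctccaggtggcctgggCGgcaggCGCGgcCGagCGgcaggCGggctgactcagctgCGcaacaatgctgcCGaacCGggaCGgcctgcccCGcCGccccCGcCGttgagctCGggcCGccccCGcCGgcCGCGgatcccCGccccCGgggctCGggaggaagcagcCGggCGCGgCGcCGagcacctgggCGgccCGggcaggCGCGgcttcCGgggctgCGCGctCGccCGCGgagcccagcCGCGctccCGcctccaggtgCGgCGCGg
Rims1: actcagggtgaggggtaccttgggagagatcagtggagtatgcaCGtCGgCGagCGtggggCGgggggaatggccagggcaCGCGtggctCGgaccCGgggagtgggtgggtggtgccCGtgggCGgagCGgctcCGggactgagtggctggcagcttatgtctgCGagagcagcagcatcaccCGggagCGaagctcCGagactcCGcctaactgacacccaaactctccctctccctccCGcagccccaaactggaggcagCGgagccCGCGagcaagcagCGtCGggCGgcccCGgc
Caln1: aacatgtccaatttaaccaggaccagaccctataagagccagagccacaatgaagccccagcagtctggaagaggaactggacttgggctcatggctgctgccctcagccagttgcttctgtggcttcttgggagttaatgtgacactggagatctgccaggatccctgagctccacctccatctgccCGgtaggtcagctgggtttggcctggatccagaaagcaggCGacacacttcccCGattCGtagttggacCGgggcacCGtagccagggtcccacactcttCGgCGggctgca
Bin on chromosome 1: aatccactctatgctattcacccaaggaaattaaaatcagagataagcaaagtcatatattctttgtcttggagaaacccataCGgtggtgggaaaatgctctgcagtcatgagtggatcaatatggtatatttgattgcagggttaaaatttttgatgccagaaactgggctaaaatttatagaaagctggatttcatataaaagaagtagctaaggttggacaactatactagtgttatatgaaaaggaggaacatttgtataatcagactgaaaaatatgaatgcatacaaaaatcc
Ptprd intron: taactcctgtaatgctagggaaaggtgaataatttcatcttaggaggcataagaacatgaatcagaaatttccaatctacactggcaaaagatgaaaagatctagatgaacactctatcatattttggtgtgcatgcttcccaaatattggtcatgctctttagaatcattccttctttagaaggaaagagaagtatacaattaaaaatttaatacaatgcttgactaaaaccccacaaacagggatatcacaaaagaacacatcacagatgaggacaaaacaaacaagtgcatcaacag
The number of CpG sites was 1 in the window of Slc5a7, 47 in Arap2, 26 in Rims1 and 8 in Caln1, against a median of 7 over the 32817 promoter windows of the table, of which 94.6% held at least 1. The window on chromosome 1 held 1 and that in Ptprd held 0, in bins with 4.48 and 6.54 CpG sites per kb. The shown promoters thus ran from nearly empty of CpG to dense with it, and both windows away from promoters were nearly empty.

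Averaged over the 200 bins, cortex had a 5hmC level of 0.144 ± 0.00920, olfactory bulb one of 0.102 ± 0.00418 and cerebellum one of 0.0683 ± 0.00124 (SD, n = 3 each). The cortex and olfactory bulb values chose the bins, and are given without a test. In the other eligible bins the levels were 0.179 ± 0.0103, 0.162 ± 0.00457 and 0.106 ± 0.00195 (SD, n = 3 each). The 200 bins therefore lay below the other bins in all 3 tissues, cortex included, and farthest below them in olfactory bulb. The ratio ran from 0.521 to 0.755 with a median of 0.723, against a median of 0.880 over all eligible bins and a highest value of 1.45. In all 200 bins every olfactory bulb library lay below every cortex library, as it did in 68.2% of the 2581 bins measured in both assays. It lay above in 0 of the 200 and in 3.33% of all. Just inside the limit were the bins of Pdgfd, Dync2h1 and Ddi1 (chr9:6000001-7000000, 0.115 in cortex and 0.0870 in olfactory bulb) and of Hecw1, Arid4b and Psma2 (chr13:14000001-15000000, 0.170 and 0.128). Just outside were those of Csmd1 (chr8:16000001-17000000, 0.2379 and 0.1798) and of Phlpp1, Bcl2 and Kdsr (chr1:106000001-107000000, 0.210 and 0.159).

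**Figure D1:**
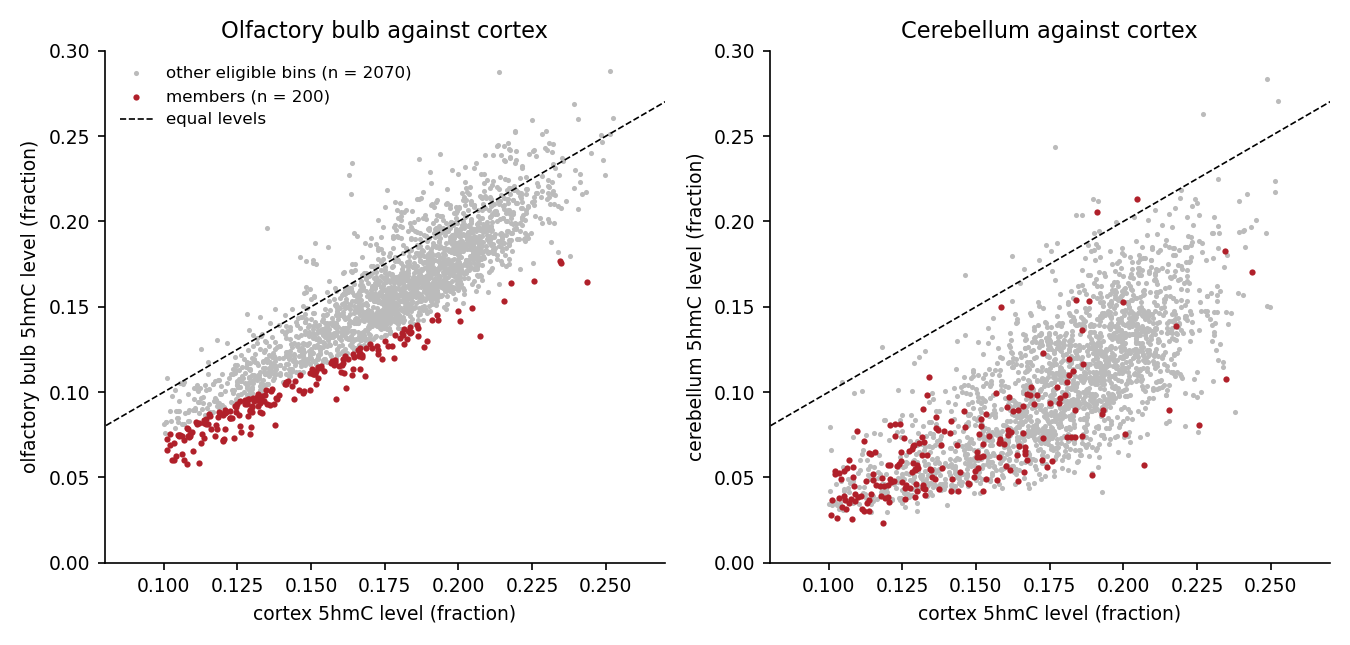
Mean 5hmC level (fraction, 3 libraries per tissue) of each of the 2270 eligible 1 Mb bins in olfactory bulb (left) and cerebellum (right) against cortex, with the 200 chosen bins in red and the line of equal levels dashed. The chosen bins form the lower edge of the left panel because they were chosen by this ratio, while in the right panel they lie among the other bins.

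The lowest ratio was that of the bin around Slc5a7 (chr17:54000001-55000000), where the gene is the only protein-coding one. Its 5hmC level was 0.107, 0.127 and 0.101 in the cortex libraries, 0.0538, 0.0623 and 0.0590 in those of olfactory bulb and 0.0301, 0.0288 and 0.0324 in those of cerebellum. The tissues did not overlap. The next was chr1:102000001-103000000 (ratio 0.536), which has no protein-coding gene, and neither have its neighbours on either side (0.566 and 0.583). Beside them stood the bin of Gm4631, Gm14391 and Gm2026 (chr2:175000001-176000000, 0.582), part of a cluster of near-identical genes whose reads may not be placed with certainty. Of the 20 bins with the lowest ratio, 10 were poor in genes (protein-coding genes over at most 5% of the bin), and 6 of them held none. The bins with genes included those of Trpv5, Kel and Trpv6, of which Trpv5 and Trpv6 encode epithelial calcium channels (chr6:41000001-42000000, 0.584), Stx3, a syntaxin of membrane fusion, with Patl1 (chr19:11000001-12000000, 0.591), Mettl4 (chr17:94000001-95000000, 0.595), Fam111a, Lpxn and Dtx4 (chr19:12000001-13000000, 0.599), Adcyap1, the gene of the neuropeptide PACAP (chr17:93000001-94000000, 0.603), Prkdc, the catalytic subunit of a DNA repair kinase (chr16:15000001-16000000, 0.621), Xkr4 with Rp1 (chr1:3000001-4000000, 0.633) and Adgre4 with St6gal2 (chr17:55000001-56000000, 0.635). Cntnap5a, of the Caspr family of neuronal cell adhesion molecules, gave 2 of the 20 (chr1:116000001-117000000, 0.585, and chr1:115000001-116000000, 0.616). The others were Ralyl, an RNA-binding protein (chr3:13000001-14000000, 0.605), Tmx3 (chr18:90000001-91000000, 0.599) and 3 more bins without a protein-coding gene on chromosomes 12, 3 and 4. Across the 20 bins cortex levels ran from 0.103 to 0.162, bulb levels from 0.0578 to 0.102 and cerebellum levels from 0.0256 to 0.150.

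The 200 bins were poorer in genes and CpG sites than the other eligible bins. Their median GC content was 39.3% against 42.2%, the median number of CpG sites 5.65 against 8.57 per kb, the median share of repeats (soft-masked bases) 41.1% against 30.5%, and the median share of the bin inside any gene 35.2% against 54.9%. They held a median of 3 protein-coding genes against 6. Gene-poor bins made up 51 of the 200 and 239 of the 2070, and bins in which a single protein-coding gene covered at least 50% of the length made up 24 and 165. Both kinds were thus more frequent among the 200, and the mixed remainder (125 and 1666) less. The cortex level moved with membership as well: 46 of the 121 eligible bins with a cortex level from 0.10 to 0.12 were chosen, but 9 of the 505 at 0.20 or more. GC content, repeats and cortex level differed together, and their parts were not tested. Neighbouring bins are not independent, and 108 of the 200 lay in 43 runs of 2 or more adjacent bins.

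Chromosome 1 held 32 of the 200 bins, out of 189 eligible, chromosome 4 held 19 of 142 and chromosome 10 held 1 of 126. The longest runs had 5 bins. One covered chr4:75000001-80000000 with Ptprd and Dmac1, and the other chr1:99000001-104000000 with Cntnap5b, of the same family as Cntnap5a, as its only protein-coding gene. There were 4 runs of 4 bins, among them chr1:17000001-21000000 with Tfap2b, Tfap2d and Pkhd1. In these runs genes covered 45.7%, 19.8% and 31.9% of the length. Ptprd is a receptor-type tyrosine phosphatase that organizes synapses, and it covers the bins chr4:76000001-77000000 and chr4:77000001-78000000 whole.

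The genes inside the 200 bins were counted by lists of neuronal, glial and receptor genes. Most lists are small, so that a count of 0 says little. Of all protein-coding genes whose main bin was eligible, 6.77% lay in them (1266 of 18712). Among genes in eligible bins, olfactory receptor genes lay there more often (107 of 443), as did vomeronasal receptor genes (35 of 93). Most receptor genes were outside eligible bins, since the lists hold 1135 and 331 of them, against 21951 protein-coding genes in all. The 142 receptor genes inside sat in 15 bins, 7 of which held 127 of them, so that they are few independent places. These clusters included chr19:12000001-13000000 (Olfr1423 and its neighbours), chr7:140000001-141000000 (Olfr45 and neighbours), chr2:85000001-86000000 (Olfr1000 and neighbours) and chr6:57000001-58000000 (Vmn1r10 and neighbours). The 15 bins had a mean 5hmC level of 0.133 ± 0.00799 for cortex, 0.0913 ± 0.00352 for the bulb and 0.0628 ± 0.00182 for cerebellum (SD, n = 3), against 0.145 ± 0.00931, 0.103 ± 0.00424 and 0.0687 ± 0.00126 in the 185 bins without such a gene. Of the 15 bins, 13 had more 5mC in olfactory bulb than in cortex by limma, as did 173 of the 185 and 60.8% of all bins. Among adhesion genes, 4 of 16 genes of a list of contactins, the Caspr family and IgLON genes were inside. They were Cntnap5a, Cntnap5b and Cntnap5c of the Caspr family, and the contactin Cntn4. Of the brain cadherins, 3 of 14 (Cdh9, Cdh19 and Cdh7) were inside. The counts were 4 of 92 for potassium channel genes (Kcns3, Kcnip3, Kcnq1 and Kcnt2), 1 of 31 for transcription factors of cortical excitatory neurons (Rorb), 1 of 21 for cerebellar granule neuron genes (Atoh1), 1 of 8 for metabotropic glutamate receptors (Grm3) and 1 of 33 for axon guidance genes (Ephb6). None of the 28 effector genes of cortical excitatory neurons lay in the 200 bins, nor any of 15 cortical interneuron, 21 olfactory bulb interneuron, 16 astrocyte, 15 oligodendrocyte lineage, 12 microglia or 9 endothelial genes. The same held for 16 GABA-A receptor genes, 18 neurexin, neuroligin, teneurin and latrophilin genes, 25 calcium channel genes and 9 genes of enzymes that methylate DNA or oxidize 5mC.

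In cerebellum, whose libraries did not enter the choice, the 200 bins had less 5hmC than the other eligible bins. The difference was -0.0378, -0.0373 and -0.0388 in the 3 libraries (mean -0.0380 ± 0.000742, SD, n = 3). It was larger than the spread between libraries, and it was smaller among bins within the same range of cortex level. Between 0.10 and 0.12 in cortex the cerebellum level was 0.0442 ± 0.00129 in the chosen bins and 0.0516 ± 0.00183 in the others, between 0.12 and 0.14 it was 0.0596 ± 0.00120 and 0.0588 ± 0.00115, between 0.14 and 0.16 it was 0.0675 ± 0.00139 and 0.0752 ± 0.00128, and between 0.16 and 0.18 it was 0.0793 ± 0.00131 and 0.0972 ± 0.00199. Above that it was 0.109 ± 0.00148 and 0.116 ± 0.00205 (0.18 to 0.20) and 0.124 ± 0.00195 and 0.143 ± 0.00255 (0.20 and more). The chosen bins thus lay below the others in 5 of the 6 ranges, and in the range from 0.12 to 0.14 the difference was within 1 SD. The cerebellum level was 0.434 times the cortex level in the median member (0.574 times in the median of the others), with a range from 0.197 to 1.07. Every cerebellum library lay below every cortex library in 197 of the 200 bins and above in 0 (97.5% and 0.387% of all bins). Against olfactory bulb the counts were 184 below and 6 above (92.6% and 1.39%), so the order cortex, olfactory bulb, cerebellum was the usual one. limma calls, given as a description because the libraries of cortex and the bulb chose the bins, had the same numbers, with cerebellum lower than cortex in 197 bins and higher in 0 (97.6% and 0.426% of all bins), and lower than the bulb in 184 and higher in 6 (91.8% and 1.2%).

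**Figure D2:**
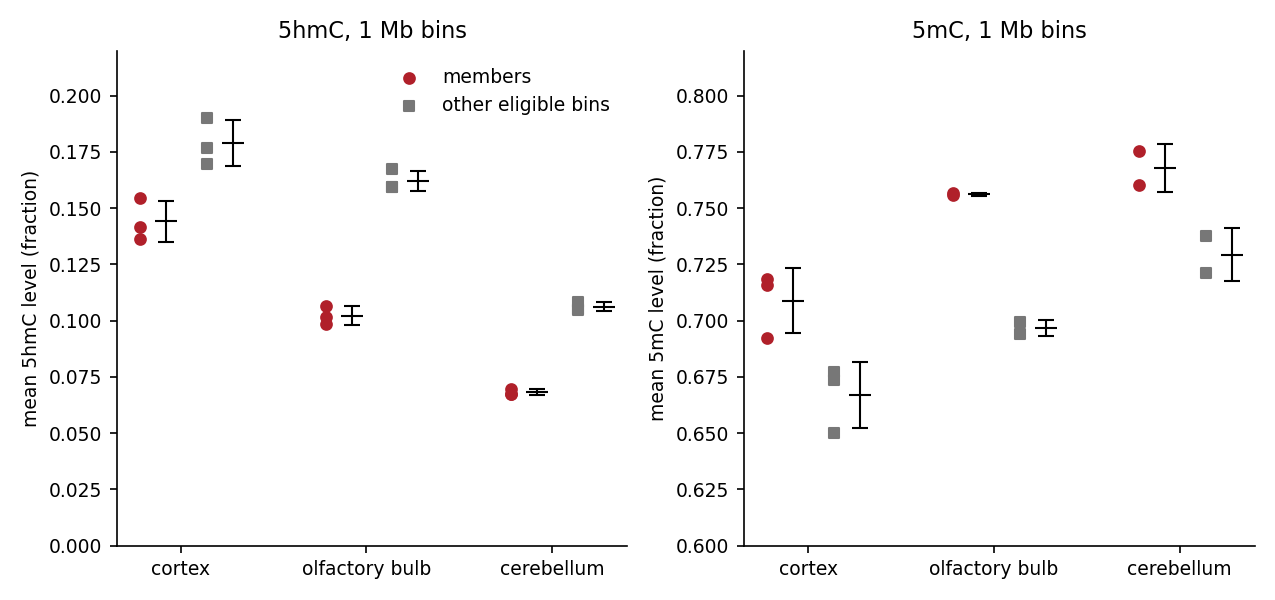
Mean 5hmC (left) and 5mC (right, axis from 0.60) level of the 200 chosen bins (red circles) and of the 2070 other eligible bins (grey squares), with 1 point per library and a line and bar for the mean ± SD. In olfactory bulb the chosen bins are lower than the others in 5hmC (0.102 against 0.162) and higher in 5mC (0.756 against 0.697).

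The order of the means was different in 12 of the 200 bins, where the cerebellum mean was above that of olfactory bulb, as it was in 51 of the 2070 others. All cerebellum libraries were above those of olfactory bulb in only 6 of the 200. In others, such as the bin of Grxcr1 (chr5:68000001-69000000, 0.0981 against 0.0979), the libraries overlapped. The highest cerebellum levels were in the bin of Caln1 and Galnt17 (chr5:130000001-131000000), with 0.208, 0.216 and 0.216 in the cerebellum libraries against 0.149, 0.153 and 0.146 in olfactory bulb and 0.202, 0.218 and 0.193 in cortex. Next was the bin of Rims1 (chr1:22000001-23000000), with 0.2097, 0.1999 and 0.2067 against 0.142, 0.145 and 0.139 in olfactory bulb and 0.191, 0.206 and 0.177 in cortex. In both bins the cerebellum libraries were above all of olfactory bulb and within or near the range of cortex. The third was the bin of Arhgap26, a GTPase-activating protein, and Nr3c1, the glucocorticoid receptor (chr18:39000001-40000000, 0.183 ± 0.00404 in cerebellum, 0.177 ± 0.00638 in olfactory bulb and 0.234 ± 0.0101 in cortex, SD, n = 3). Ralyl had 0.153, 0.148 and 0.149 in cerebellum, 0.0907, 0.0997 and 0.0974 in olfactory bulb and a mean of 0.159 ± 0.0114 (SD, n = 3) in cortex, so that the low level was that of olfactory bulb. At the other end, the bin of Sntg1, a syntrophin of neurons (chr1:8000001-9000000), had 0.0219, 0.0233 and 0.0246 in cerebellum against 0.0789, 0.0894 and 0.0876 in olfactory bulb, and the gene-free bins chr1:102000001-103000000 and chr1:103000001-104000000 had 0.0256 ± 0.00116 and 0.0265 ± 0.00384 in cerebellum (SD, n = 3).

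5mC came from other libraries than those behind the choice, and it was higher in olfactory bulb than in cortex in nearly all of the 200 bins. The cortex libraries averaged 0.719, 0.716 and 0.692 over them, those of olfactory bulb 0.756 and 0.757, and those of cerebellum 0.775 and 0.760. The olfactory bulb libraries were above all cortex libraries in 197 of the 200 bins and below all of them in 0 (81.1% and 1.39% of all bins). limma was fitted once to all libraries on the log2 of level/(1 - level), with a threshold of 0.05 on the Benjamini-Hochberg adjusted p over 2581 bins. By this test 186 of the 200 bins were higher and 0 lower in olfactory bulb, against 60.8% higher and 0.697% lower of all bins. The median difference on that scale was 0.35 in the 200 bins and 0.21 over all bins. Since the whole genome shifted, the test was repeated with each library centred on its median: 139 of the 200 bins were then higher and 5 lower (23.9% and 24.8% of all bins), with a median of 0.13. On the scale of the level, the gain was 0.0473 in the 200 bins and 0.0299 in the others, a difference of 0.0174 ± 0.00530 (SD combined from 3 cortex and 2 olfactory bulb libraries). limma gave every 1 Mb bin the same standard error (0.0835 on the log2 scale), so a bin's p does not reflect its own spread, and neighbouring bins are not independent.

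**Figure D3:**
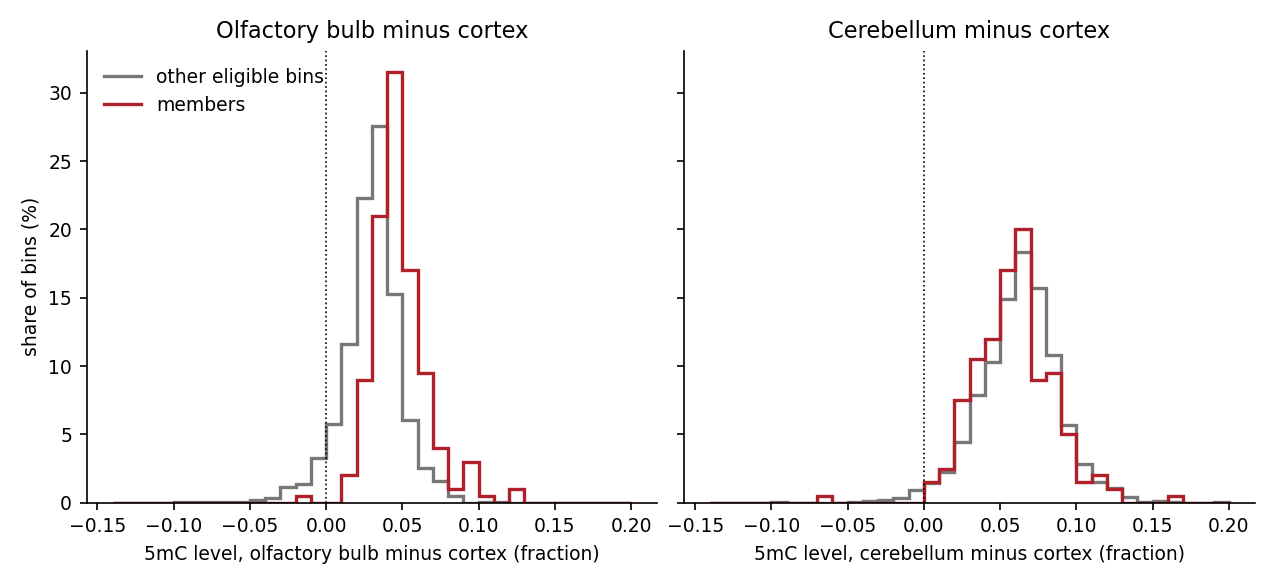
Distribution over 1 Mb bins of the difference in mean 5mC level from cortex, for olfactory bulb (left) and cerebellum (right), as the share of the 200 chosen bins (red) and of the 2070 other eligible bins (grey) per step of 0.01. The chosen bins lie to the right of the others for olfactory bulb (medians 0.0446 and 0.0312) and slightly to the left for cerebellum (medians 0.0589 and 0.0635).

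The largest gain of the 5mC level in olfactory bulb was in Ptprd. The bin inside Ptprd at chr4:76000001-77000000 had 0.619, 0.623 and 0.594 in cortex and 0.741 and 0.735 in olfactory bulb (log2 difference 0.84 ± 0.08 SE, limma adjusted p = 4.01e-20), and the next one, chr4:77000001-78000000, had 0.638, 0.626 and 0.619 against 0.748 and 0.747 (0.81, adjusted p = 3.11e-19). Then came, by the difference in level, the bins of Arhgap26 and Nr3c1 (0.102 in level and 0.69 on the log2 scale), of Lingo2, a leucine-rich repeat protein of neurons (chr4:36000001-37000000, 0.0973 and 0.68), and of Rims1 (0.0936 and 0.65). On the log2 scale the bins of Xkr4 and Rp1 (0.67) and of Nrg3 (0.66) also lay above that of Rims1. In the Rims1 bin the 5mC level was 0.669, 0.668 and 0.641 in cortex, 0.754 and 0.751 in olfactory bulb and 0.687 and 0.673 in cerebellum, so that cerebellum lay by cortex in 5mC as it did in 5hmC. No bin among the 200 had a fall past the threshold. By kind of bin, 50 of 51 gene-poor bins were higher in olfactory bulb (median log2 difference 0.35), 23 of 24 long-gene bins (0.48) and 113 of 125 of the rest (0.31), against 79.5%, 67.3% and 58.7% of the other eligible bins of these kinds.

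The gain of 5mC was larger in bins with more 5hmC in cortex. In the 200 bins it rose from 0.0369 at a cortex 5hmC level of 0.10 to 0.12 (46 bins) over 0.0423, 0.0472, 0.0519 and 0.0626 to 0.0851 at 0.20 and more (9 bins). In the other eligible bins it was between 0.0284 and 0.0318 in all 6 ranges. Since a limit on a ratio lets the difference in 5hmC grow with the cortex level, the loss of 5hmC was also larger in these bins. Across the 200 bins, Pearson's r between the difference in 5hmC and that in 5mC, olfactory bulb minus cortex, was -0.637 (Spearman's coefficient -0.545), and across the 2070 others it was -0.678 (-0.623). These values describe bins that share libraries, neighbours and base composition. The rule fixed lower 5hmC in olfactory bulb for all 200 bins. Mean 5mC was higher there in 199 of them, as in 1932 of the 2070 others (93.3%). Among the others, where lower 5hmC was not fixed, 1769 had both. The mean loss of 5hmC, -0.0420, and the mean gain of 5mC, 0.0473, left a difference in their sum of 0.00538, smaller than the SD between cortex libraries of either assay. The sum in cortex was 0.853, that in the bulb 0.859 and that in cerebellum 0.836. In the other eligible bins the mean difference in the sum, olfactory bulb minus cortex, was 0.0132. Single bins among the 200 moved either way. In the Ptprd bin chr4:76000001-77000000 the sum was 0.855 in cortex and 0.902 in olfactory bulb, and in that of Slc5a7 0.849 and 0.828.

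The 200 bins held 1976 bins of 100 kb, of which 1970 had no library at 0 or 1 and were tested with 25664 in all. In olfactory bulb 1292 were higher than in cortex and 4 lower, against 37.6% and 2.18% of all 100 kb bins, with a median log2 difference of 0.34 against 0.22. With libraries centred on their medians, 450 were higher and 15 lower (8.81% and 9.9% of all). The number fell when either olfactory bulb library was left out, as did that over all 100 kb bins. The median log2 difference was then 0.354 without the first and 0.328 without the second, against 0.212 and 0.230 over all 100 kb bins. The change was spread over the members: the mean was higher in olfactory bulb in 1944 of the 1970 bins, the median member had 7 bins past the threshold, 25 members had all of them, and 4 had none. Bins wholly inside a protein-coding gene were higher in 229 of 276 cases (43.4% of all such bins), bins with no protein-coding gene in 685 of 983 (42.5%) and bins partly covered in 378 of 711 (32.2%). The mean level in the bins wholly inside a gene was 0.685 ± 0.0133 in cortex (SD, n = 3) and 0.758 ± 0.00101 in olfactory bulb (SD, n = 2), and in those with no protein-coding gene 0.740 ± 0.0143 and 0.783 ± 0.00256. In the partly covered bins it was 0.675 ± 0.0150 and 0.719 ± 0.00228, so that these had the lowest cortex level without the larger gain of the bins inside genes.

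The largest gain was in Xylt1, the enzyme that starts the sugar chains of proteoglycans. In the bin chr7:117400001-117500000, wholly inside the gene, the level was 0.545, 0.560 and 0.509 in cortex, 0.735 and 0.715 in olfactory bulb and 0.726 and 0.715 in cerebellum (log2 difference of olfactory bulb 1.18 ± 0.12 SE, limma adjusted p = 1.74e-19). In Ptprd (chr4:76200001-76300000) it was 0.575, 0.533 and 0.534 in cortex against 0.717 and 0.739 in olfactory bulb, and 0.672 and 0.693 in cerebellum. These 2 bins were high in both tissues other than cortex. In Rims1 (chr1:22600001-22700000) it was 0.588, 0.585 and 0.538 in cortex, 0.753 and 0.739 in olfactory bulb, and 0.548 and 0.516 in cerebellum. Arhgap26 (chr18:39000001-39100000) had 0.542, 0.564 and 0.553, then 0.728 and 0.729, then 0.517 and 0.477. Chl1, a cell adhesion molecule of the L1 family (chr6:103500001-103600000, which holds its start), had 0.495, 0.497 and 0.464, then 0.669 and 0.652, then 0.511 and 0.493. In the last 3 genes only olfactory bulb was high, with the cerebellum libraries in or below the cortex range or just above it.

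Ptprd could be followed along its length, since the 22 bins of 100 kb wholly inside it all lay in members. It runs on the minus strand over chr4:75941238-78211961 (2271 kb). All 22 bins were higher in olfactory bulb than in cortex. The first 17 bins from the start had a mean level of 0.636 ± 0.0122 in cortex (SD, n = 3), 0.756 ± 0.000523 in olfactory bulb (SD, n = 2) and 0.802 ± 0.0138 in cerebellum (SD, n = 2). The last 5 had 0.566 ± 0.0103, 0.711 ± 0.00781 and 0.650 ± 0.00750. On average cerebellum was thus above olfactory bulb over the first stretch and below it over the last. In the final bin wholly inside the gene cerebellum was again above olfactory bulb (0.747 against 0.731). The division was made after the values were seen. 5hmC at 1 Mb changed at the same end of the gene. The bin chr4:77000001-78000000, nearer the start, had 0.202, 0.221 and 0.199 in cortex, 0.129, 0.136 and 0.133 in olfactory bulb, and 0.0567, 0.0570 and 0.0588 in cerebellum. The bin chr4:76000001-77000000, nearer the end, had 0.239, 0.261 and 0.231, then 0.163, 0.171 and 0.159, then 0.178, 0.166 and 0.168. Cerebellum lay far below olfactory bulb in the former and overlapped it in the latter. The 2 bins that hold an end of the gene had 0.631 ± 0.0126 in cortex (SD, n = 3) and 0.743 ± 0.00794 in olfactory bulb (SD, n = 2), and both were higher. In the 10 bins beside the gene cortex 5mC was higher, at 0.740 ± 0.0182, and 8 of the 10 were higher in olfactory bulb, at 0.790 ± 0.00171.

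**Figure D4:**
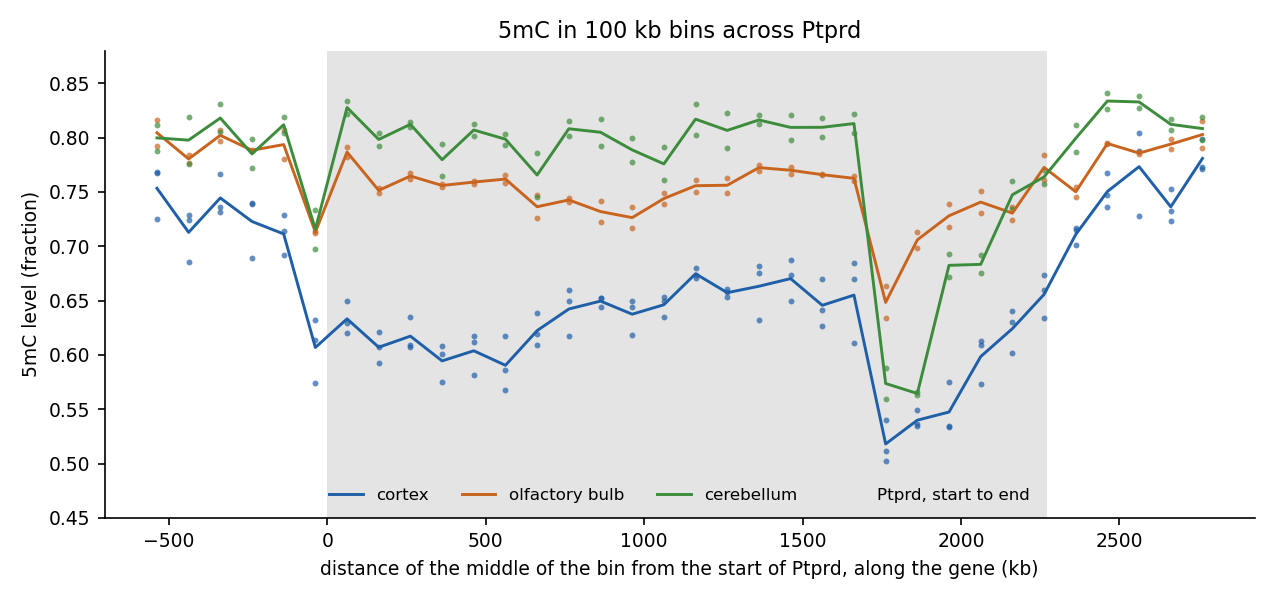
5mC level (fraction) of 100 kb bins against the distance of the middle of the bin from the start of Ptprd in kb, along the direction of the gene, with 1 point per library, lines for tissue means and the gene shaded. Cortex is lowest along the gene, and cerebellum drops from 0.813 to 0.574 between the last bin of the first stretch and the first bin of the second, toward the cortex level.

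Of the genes that covered at least 50% of a member, 20 are reported, and in all 20 every olfactory bulb library was above every cortex library in mean 5mC over the gene's 100 kb bins. Of all 1 Mb bins, 81.1% did not overlap in this way. The differences ran from 0.0230 to 0.125, and 160 of the 179 bins of 100 kb of these genes were past the threshold, all of them higher, against 37.6% of all 100 kb bins and 43.4% of those wholly inside a protein-coding gene. Besides Ptprd and Rims1 the largest were in Nrg3, a neuregulin that binds the receptor ErbB4 (chr14:38368952-39473088, 0.633 ± 0.0123 in cortex, SD, n = 3, and 0.756 ± 0.00675 in olfactory bulb, SD, n = 2), Lingo2 (chr4:35706647-36951747, 0.671 ± 0.0154 and 0.764 ± 0.00405), Lrrc4c, a ligand of netrin-G1 (chr2:96318169-97631666, 0.653 ± 0.00937 and 0.747 ± 0.00413), and Kcnip4, a subunit that modulates potassium channels (chr5:48389502-49524907, 0.655 ± 0.0132 and 0.748 ± 0.00144). The smallest were in Lrmda (0.737 ± 0.0230 and 0.760 ± 0.00341), Cpq, a carboxypeptidase, and Iqcm. In 17 of the 20 genes the cerebellum mean was above that of olfactory bulb, as in Gpc6, a glypican (0.819 ± 0.0142 against 0.763 ± 0.00133). It was below it in Rims1 (0.591 ± 0.0106), Ralyl (0.718 ± 0.0104) and Kcnip4 (0.742 ± 0.0127), and in Kcnip4 by less than the SD. Rims1 alone had a cerebellum mean below that of cortex.

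**Figure D5:**
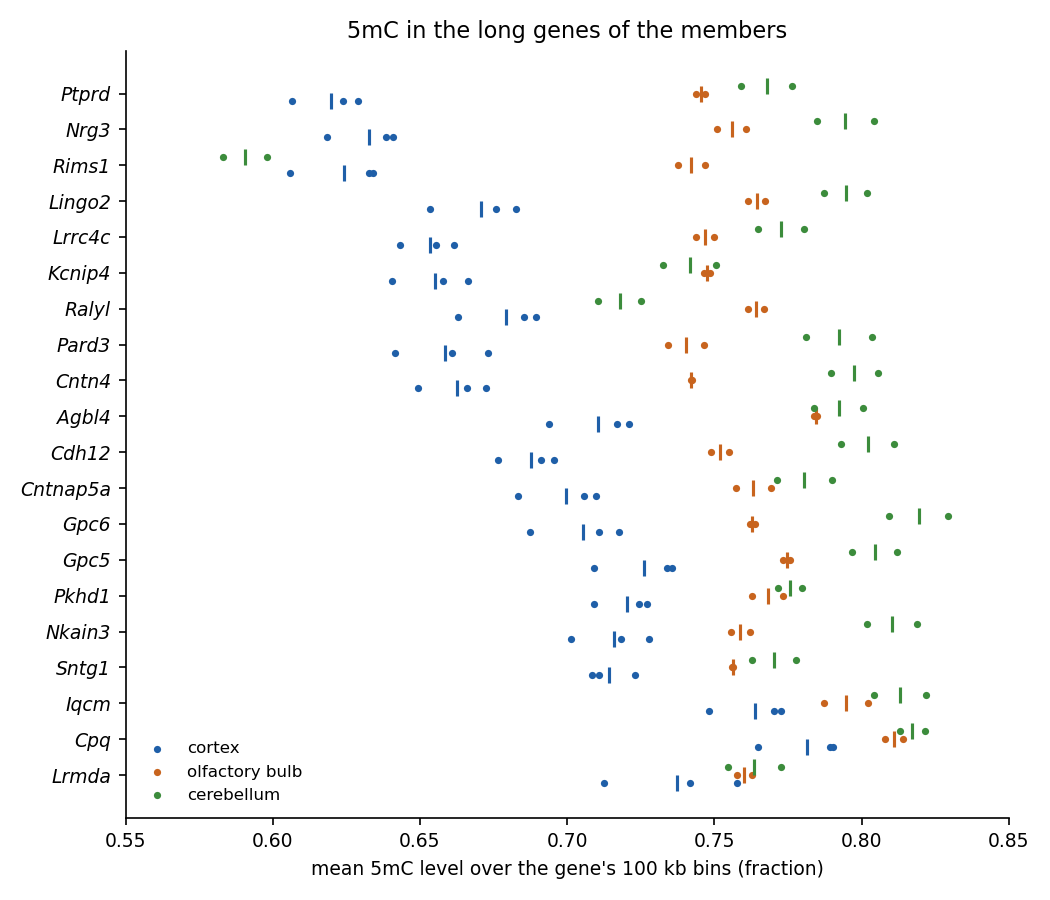
Mean 5mC level (fraction) over the 100 kb bins of each of 20 genes that cover at least 50% of a chosen bin, ordered by the difference between olfactory bulb and cortex, with 1 point per library and a bar for each tissue mean. Cortex is lower than olfactory bulb in every gene, and cerebellum is highest in 17 genes but lies below cortex in Rims1 (0.591 against 0.624).

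Cerebellum had more 5mC than cortex in 188 of the 200 bins and less in 1 (limma, 82.5% and 3.02% of all bins), and in 1562 and 20 of the 1970 bins of 100 kb (71.9% and 4.44%). At 1 Mb all its libraries lay above cortex in 188 bins and below in 1 (84.3% and 3.02%). The median log2 difference at 1 Mb was 0.46 in the 200 bins and 0.43 over all bins, so the 200 bins followed the genome here. With centred libraries the split was 102 higher and 46 lower at 1 Mb (44.8% and 32.4% of all bins) and 527 and 312 at 100 kb (25.7% and 24.3%). The largest gains at 100 kb were in Arap2 (chr5:62700001-62800000, 0.541 ± 0.00918 in cortex, SD, n = 3, and 0.752 ± 0.0123 in cerebellum, SD, n = 2), Ptprd (chr4:77600001-77700000, 0.590 ± 0.0247 and 0.799 ± 0.00710) and Nrg3 (chr14:38900001-39000000, 0.576 ± 0.0214 and 0.781 ± 0.0124). The single member with less 5mC was that of Tpcn2, Mrgprd and Mrgprf (chr7:145000001-146000000), with 0.713, 0.728 and 0.672 in cortex and 0.649 and 0.622 in cerebellum (log2 difference -0.45, limma adjusted p = 1.31e-07). Within it the bin of Mrgprd, the receptor of a class of pain-sensing neurons, and Mrgprf (chr7:145300001-145400000) had 0.692, 0.722 and 0.647 in cortex and 0.477 and 0.462 in cerebellum, the largest fall. The next falls were in Syt9, a synaptotagmin (chr7:107400001-107500000, 0.723 ± 0.0253 and 0.592 ± 0.00867), and Caln1 (chr5:130400001-130500000, 0.613 ± 0.0460 and 0.527 ± 0.0317).

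Against olfactory bulb, cerebellum had more 5mC in 51 of the 200 bins and less in 8 (limma, 49.8% and 7.36% of all bins), and at 100 kb in 359 and 74 (35.3% and 7.69%). At 1 Mb its libraries were all above those of the bulb in 115 bins and all below in 20 (69.5% and 14.3%). The higher count was below the share of all bins and turned with the scaling: with centred libraries it was 27 higher and 80 lower at 1 Mb (39.6% and 30.8% of all bins) and 159 and 413 at 100 kb (22.1% and 21.3%). The higher count also moved with a library that is not in the contrast. Without the third cortex library 89 bins were higher (62.1% of all bins), at an unchanged median log2 difference of 0.110. Cortex enters this comparison only through the spread estimated in the joint fit. The fits without 1 cerebellum or olfactory bulb library leave 1 in that tissue. In them the median log2 difference at 1 Mb was 0.053 without the first cerebellum library (0.135 over all bins) and 0.173 without the second (0.263 over all bins). It was 0.113 and 0.122 without the first or the second of olfactory bulb (0.208 and 0.186 over all bins). At 100 kb the medians were 0.058, 0.177, 0.112 and 0.124 in the same order (0.128, 0.256, 0.202 and 0.184 over all). The 8 bins with less were those led by Ralyl, Tpcn2, Syt9, Caln1, Dnah9, Rims1, Gpm6a and Arhgap26. All but that of Gpm6a, a membrane glycoprotein of neurons, were among the 12 bins with a higher mean 5hmC in cerebellum than in olfactory bulb, some of them with overlapping libraries. In the bin of Caln1 the log2 difference was -0.49 (limma adjusted p = 8.1e-07) and in that of Rims1 -0.52 (limma adjusted p = 1.97e-07). The 2 assays used separate libraries.

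The bins outside the common pattern were few. Of the 200, 14 were not past the threshold in 5mC between olfactory bulb and cortex, and only in that of Gm4631, Gm14391 and Gm2026 was the olfactory bulb mean lower, with 0.740, 0.745 and 0.712 in cortex and 0.677 and 0.748 in olfactory bulb (log2 difference -0.13, limma adjusted p = 0.142). The 4 bins of 100 kb with lower 5mC, named after their values were seen, all lay in clusters of predicted genes on chromosomes 2 and 14. They were those of Gm14440 and Gm14391 (chr2:175200001-175300000), Gm6710 and Gm14288 (chr2:175800001-175900000), Gm3005 (chr14:3500001-3600000), and Gm3512 and Gm6676 (chr14:7100001-7200000). Their libraries differed widely within a tissue. In the first bin they gave 0.600, 0.775 and 0.720 in cortex and 0.471 and 0.784 in olfactory bulb, and in all 4 bins the tissues overlapped. Such genes exist in near-identical copies, and their values are uncertain. The others of the 14 included the bins of Tfap2d and Tfap2b (limma adjusted p = 0.0569), Slc25a21 with Pax9 (0.362) and Lrmda (0.0782), all with a higher mean in olfactory bulb.

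The bins were also chosen again from 2 cortex and 2 olfactory bulb libraries. The ratio was then read in the 2 held back, in each of the 9 ways. All these libraries had entered the first choice, so this describes the choice and does not test the 200 bins. Between 175 and 189 of the 200 bins were chosen again. These choices shared libraries with the first one, so a high overlap was built in. In the held-back pair the median ratio of the chosen bins was between 0.654 and 0.796, against 0.813 to 0.958 over the eligible bins, and in each of the 9 ways all 200 were below that median. Between 146 and 170 of them were among the 200 lowest of the held-back pair. The level of a library thus moved the ratio, while most of the chosen bins stayed among the lowest.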

How the data were processed

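5hmC came from TAB-seq in 9 libraries and 5mC from oxBS-seq in 7. The authors mapped uniquely aligned reads to mm10 with Bismark (version not given in the sources used here) and deposited 1 table per library with the level as a fraction, C/(C + T), for 1 Mb bins (5hmC) and 100 kb bins (5mC). How sites were combined in a bin is not given. The study states its sequencing depth per tissue and a minimum coverage per called site, but the tables give no coverage, so the depth behind a bin is unknown, counting error has no interval here, and precision rests on the number of libraries. The RNA-seq libraries were not analysed here. The labels name no batch. The oxBS-seq replicate numbers of the labels and of the library names do not match in olfactory bulb or cerebellum, and those of the labels were used. Deviations of same-numbered TAB-seq libraries of cortex and olfactory bulb correlated at 0.126, 0.344 and 0.25, and those of cerebellum with either tissue at -0.229 to 0.0743. No values of differently numbered libraries stand beside them, so they do not show whether the libraries are paired. No test rests on TAB-seq, and a ratio of tissue means does not change with pairing.

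Bins at 0 or 1 in any library were left out, which left 2581 of 2641 bins of 1 Mb and 25664 of 26327 of 100 kb. 5mC at 1 Mb is the unweighted mean of the 100 kb bins. limma 3.58.1 (R 4.3.3) was fitted to log2(level/(1 - level)) of all 7 libraries with tissue as the factor, and the adjusted p (Benjamini-Hochberg over all bins) had to be under 0.05. On simulated data with 200 changed bins, a log2 change of 0.5 was found in 100% of changed bins at 1 Mb and 72.5% at 100 kb, and one of 0.2 in 10% and 0%. At 0.5 there were 12 false calls at 1 Mb and 9 at 100 kb. The simulation gave every bin the same spread and changed far fewer bins than were called in the data. These shares therefore do not give the share of real changes found here. Means, figures and annotation used Python 3.11.15, numpy 2.4.6, pandas 2.3.3 and matplotlib 3.10.9, with genes from GENCODE M21 and sequences from RefSeq (GRCm38.p6).

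The bins and lists were chosen with earlier results of these data known. Bins and genes were named as the 20 lowest ratios, the bins next to the limit, the highest and lowest 3 in cerebellum 5hmC, the 5 largest changes of 5mC in each direction between olfactory bulb and cortex (3 between cerebellum and cortex), the 3 longest runs and up to 5 genes of each list. The parts of Ptprd, the examples among long genes and the bins outside the common pattern were named after their values were seen. Some results on a long gene and on lists that hold it are not reported here.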

Additional observations from a re-analysis of the deposited data

How the results depend on the processing

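Choosing the bins by the difference in place of the ratio kept 123 of the 200, while a cortex minimum of 0.08 or 0.12, medians or scaled libraries kept 154 to 199, and leaving out a library 185 to 191. Under the same choice the cerebellum 5hmC difference from the other eligible bins was -0.0161 and the excess 5mC gain 0.0246. The cerebellum difference was -0.0437 as a median, -0.0309 with a cortex minimum of 0.12 and -0.394 with each library divided by its autosomal mean, and -0.0383 to -0.0376 without 1 library. The excess 5mC gain was 0.0144 to 0.0205 without 1 library. All kept their direction.

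Numbers of bins with changed 5mC depended on the setting more, and so did the shares of all bins. With centred libraries, 5 bins of 1 Mb were lower in olfactory bulb than in cortex, 102 higher and 46 lower in cerebellum than in cortex, and 27 higher and 80 lower in cerebellum than in olfactory bulb. At 100 kb the numbers were 450 and 15, 527 and 312, and 159 and 413. For cerebellum against olfactory bulb at 1 Mb, 27 were higher on the fraction scale (44.7% of all bins) and 80 with only these tissues fitted (58.4%). With bins at 0 or 1 kept and moved just inside these limits, 25 were higher (34.8%) and 4 lower (4.81%). At 100 kb, 224 were higher on the fraction scale (29.5%). Olfactory bulb against cortex at 100 kb gave 846 higher with such bins kept (21.6%). The lower bins there numbered 2 on the fraction scale or with only these tissues fitted, 1 with a cortex minimum of 0.12, and 0 with such bins kept or with limma's trend and robust options. Bins chosen by the difference gave 34 lower in cerebellum than in cortex. The cause was not tested. The 1 Mb cerebellum alternatives were added after seeing the data.

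Without 1 library, olfactory bulb against cortex gave 135 to 190 higher and 0 to 1 lower at 1 Mb, and 591 to 1264 and 2 to 7 at 100 kb. Cerebellum against cortex gave 160 to 189 and 1 to 1, then 1185 to 1559 and 13 to 30. Cerebellum against olfactory bulb gave 8 to 89 and 4 to 12, then 92 to 507 and 41 to 101. The shares of all bins moved too. At 1 Mb, olfactory bulb was higher than cortex in 66.8% of all bins without the second cortex library and in 54.2% without the third. The numbers of lower bins were small and moved by over 1.5 times without single libraries. Against olfactory bulb, cerebellum was lower in 48 and 46 bins of 100 kb without the first or the second olfactory bulb library and in 41 without the second cerebellum library, and at 1 Mb in 5, 5 and 4, and in 12 without the third cortex library. Against cortex it was lower in 13 bins of 100 kb without the second cortex or the second cerebellum library and in 30 without the third cortex library. Olfactory bulb was lower than cortex in 2 bins of 100 kb without the second cortex, the second olfactory bulb or either cerebellum library, and in 7 without the third cortex library.

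The replicate block changed the 1 Mb numbers to 182 higher and 1 lower, 183 and 1, and 91 and 12 in the same order, and the 100 kb numbers to 1079 and 8, 1469 and 30, and 536 and 111. The oxBS-seq deviations of same-numbered cortex and olfactory bulb libraries had correlations of -0.25 and -0.225 and those of pairs with cerebellum 0.0216 to 0.11. These too stand without values of differently numbered libraries, so they do not show whether libraries are paired in that assay. All 208 alternative values of single bins kept their direction and side of the threshold.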
